A study of Mus musculus with 4 samples.

Results

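The P2X receptors are the ATP-gated ion channels of the mouse genome, and all 7 of their genes (P2rx1 to P2rx7) were found by symbol among the 32285 genes of the deposited count matrices. They were followed in single nuclei of the cerebral cortex from 4 mice aged 5 months on a C57BL/6 background. Wildtype animals gave 2 libraries, and animals labelled Setdb1-CK-cKO gave the other 2. Setdb1 encodes a histone H3 lysine 9 methyltransferase. The labels name the knockout as conditional but do not spell out what CK stands for, which Cre line drove the deletion or which exons were removed. The family was chosen by a measured value, the P2rx7 RNA level in knockout against wildtype excitatory neurons. All member values in that contrast, in the class and in its subclasses, are therefore given as a description with no test.

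P2X subunits assemble as trimers around a cation pore that opens when extracellular ATP binds. Members differ in how much ATP they need and how fast they close: P2X1 and P2X3 desensitise quickly, whereas P2X7 needs high ATP and keeps conducting. In brain tissue P2X7 is best known from microglia, where its opening lets potassium out and feeds the NLRP3 inflammasome and the release of interleukin 1 beta. P2X4, whose gene is the nearest protein-coding one to that of P2X7, is also known from microglia. SETDB1 writes a repressive mark on chromatin, and its loss is known to release retroviral elements and some genes from silencing.

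P2rx7 (ENSMUSG00000029468) is a protein-coding gene on the plus strand at chr5:122643911-122691432 (GRCm38, GENCODE release M21), with 5970 exonic and 41552 intronic bases. P2rx4 (ENSMUSG00000029470) begins 16112 bases further along the same strand, at chr5:122707544-122729738. The remaining members lie elsewhere: P2rx2 is on the minus strand of the same chromosome, P2rx1 and P2rx5 share chromosome 11, P2rx3 is on chromosome 2 and P2rx6 on chromosome 16. P2rx3 overlaps Ssrp1 and P2rx6 overlaps Slc7a4, each on the opposite strand, so their reads are uncertain where counting did not use strand. P2rx7 holds the microRNA gene Mir8115 on its own strand. The sequences before the RefSeq starts of the neighbours P2rx7 and P2rx4 are shown because these genes lie side by side and the next results set them against each other (plus strand, RefSeq on GRCm38.p6, CG dinucleotides in capitals). The first P2rx7 stretch, chr5:122643677-122643910, ends just before the annotated gene start, and the second, chr5:122650133-122650382, precedes a start inside the gene. The P2rx4 stretch is chr5:122707294-122707543.

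P2rx7 first start: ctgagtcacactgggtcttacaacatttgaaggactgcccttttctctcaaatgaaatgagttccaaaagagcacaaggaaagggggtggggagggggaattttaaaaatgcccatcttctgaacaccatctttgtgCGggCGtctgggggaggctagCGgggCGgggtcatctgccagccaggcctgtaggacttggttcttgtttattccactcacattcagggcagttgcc
P2rx7 inner start: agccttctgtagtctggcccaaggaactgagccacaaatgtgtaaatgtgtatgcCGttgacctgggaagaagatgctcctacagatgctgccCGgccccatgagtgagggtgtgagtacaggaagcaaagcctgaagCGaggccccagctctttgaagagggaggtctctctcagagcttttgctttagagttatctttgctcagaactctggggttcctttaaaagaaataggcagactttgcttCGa
P2rx4 start: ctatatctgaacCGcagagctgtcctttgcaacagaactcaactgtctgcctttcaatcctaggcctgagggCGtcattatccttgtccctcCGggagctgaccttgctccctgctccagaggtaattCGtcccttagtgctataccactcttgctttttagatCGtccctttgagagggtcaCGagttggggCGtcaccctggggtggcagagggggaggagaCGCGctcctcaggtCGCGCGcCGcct

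CG, which reads the same on both strands, was counted in the 250 bases before every RefSeq start. The P2rx4 window held 13, a number that 31.5% of 32851 such windows reach. The printed first P2rx7 stretch stops at the annotated gene start and has 234 bases with 4 CG, whereas the counted window runs on to the RefSeq start. The first P2rx7 window held 6, equal to the median of all windows and reached by 50.4% of them, and the inner one held 4, reached by 62.2%. These counts describe the letters only. Nothing in the series measured chromatin or methylation at these starts.

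After filtering and doublet removal 52038 nuclei remained, between 11176 and 13882 per library, from libraries of 38314394 to 45605971 UMIs (unique molecular identifiers, each standing for a captured RNA molecule). Barcodes shared by any pair of libraries numbered 48 to 64. Excitatory neurons made up 27631 nuclei and inhibitory neurons of the Pvalb, Sst, Vip and Lamp5 or Sncg kinds 4659. A separate set of 1784 inhibitory nuclei carried Meis2. Glia comprised 6594 oligodendrocytes, 3501 astrocytes, 2364 microglia and 1395 oligodendrocyte precursors, each named from markers. Setdb1 itself was counted at 73.0 and 67.6 CPM (UMIs scaled to the same library total) in wildtype and 71.2 and 67.5 CPM in knockout excitatory neurons. A 3′ count checks nothing about a deletion elsewhere in the gene, so the knockout labels could not be checked this way. Sex-linked RNA went against the sex listed for both knockout libraries: Xist in excitatory neurons was 1.04 CPM in the library listed as female and 1414 CPM in that listed as male. P2rx7 was high in both of them. In wildtype excitatory neurons Xist was at 1.74 and 1031 CPM in libraries 1 and 2, so libraries with the same replicate number also shared the sex read from RNA. RNA of excitatory neurons was counted in every class. Slc17a7, the vesicular glutamate transporter gene of excitatory neurons, stood at 238 to 275 CPM in them, at 113 to 160 CPM in inhibitory neurons, at 200 to 312 CPM in astrocytes and at 337 to 469 CPM in microglia.

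P2rx7 RNA in the wildtype cortex was highest in microglia and lowest in neurons. Wildtype libraries 1 and 2 held 256 and 179 CPM in microglia, 93.5 and 104.9 CPM in oligodendrocyte precursors, and 58.0 and 47.4 CPM in oligodendrocytes. Astrocytes followed with 23.3 and 21.4 CPM, inhibitory neurons with 9.20 and 10.5 CPM, excitatory neurons with 7.50 and 6.10 CPM and Meis2 inhibitory neurons with 5.20 and 2.01 CPM. No neighbours in this order overlapped between the wildtype libraries, though with 2 libraries the spread is poorly known, and the last place rests on 5 and 1 UMIs.

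In the knockout, excitatory and inhibitory neurons no longer stood near the bottom of that order. Knockout libraries 1 and 2 held 95.2 and 69.5 CPM of P2rx7 in excitatory neurons, against 7.50 and 6.10 CPM in wildtype, a log2 fold change of 3.60 ± 0.178 (standard error, n = 2 libraries per genotype) that rests on 2482 and 1834 UMIs against 224 and 177. Knockout inhibitory neurons held 109 and 99.3 CPM. Those values overlapped the 97.8 and 115 CPM of knockout oligodendrocyte precursors. Excitatory neurons, oligodendrocytes at 89.0 and 68.4 CPM, and astrocytes at 75.4 and 65.4 CPM overlapped each other below them. Microglia stayed on top with 285 and 267 CPM. Meis2 inhibitory neurons stayed lowest with 31.9 and 21.2 CPM.

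**Figure D1:**
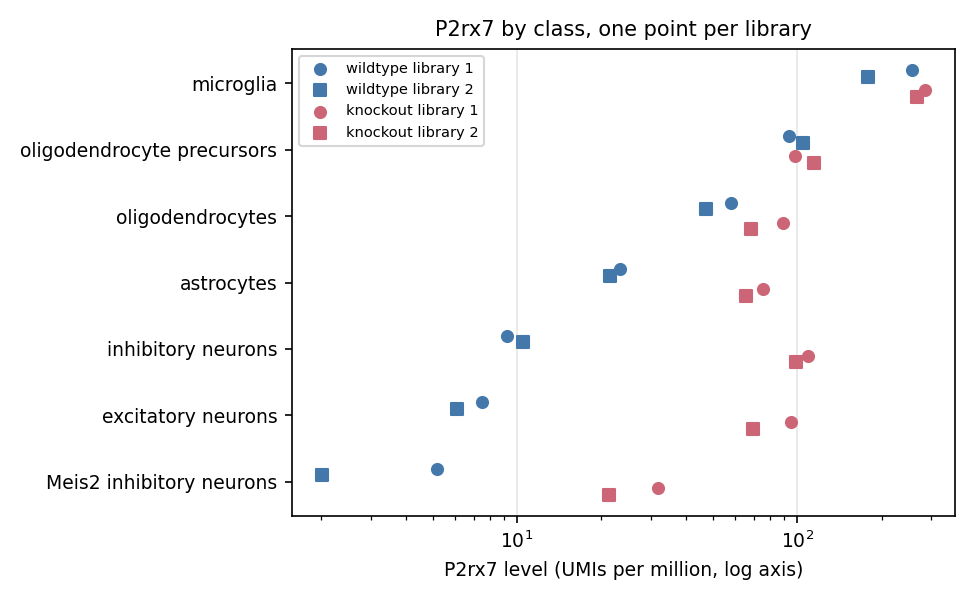
P2rx7 level in CPM (log axis) for 7 classes, with one point per library: blue for wildtype, red for knockout, circles for library 1 and squares for library 2. Wildtype points run from 2.01 to 256 along the order of classes, while the knockout points of excitatory and inhibitory neurons lie between 69.5 and 109.

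The origin of the P2rx7 UMIs in a library differed accordingly. Excitatory neurons supplied 35.3% and 34.5% of all P2rx7 UMIs in the wildtype libraries and 72.7% and 67.8% in the knockout libraries. Microglia supplied 19.8% and 16.96% in wildtype and 3.96% and 4.95% in knockout, where the totals were 3412 and 2707 UMIs against 635 and 513. These shares follow the number of nuclei and their depth as well as the level per nucleus.

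Excitatory subclasses differed widely in how much P2rx7 they held in the knockout. Layer 5 intratelencephalic (IT) neurons, which project within the telencephalon, had the highest level among them, 222 and 153 CPM against 12.9 and 11.1 CPM in wildtype. Layer 4/5 IT neurons held 201 and 146 CPM against 15.4 and 14.01 CPM. An excitatory cluster led by Galnt14 and Slc26a4 (cluster 8) held 132 and 95.4 CPM against 8.21 and 4.27 CPM. All 3 therefore lay above the class as a whole.

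Deep-layer projection neurons, claustrum or layer 6 Car3 neurons and other clusters named only by their leading genes came next. Layer 6 corticothalamic (CT) neurons held 85.2 and 72.1 CPM against 6.00 and 7.33 CPM in wildtype, and layer 5 extratelencephalic (ET) neurons, which send axons to brainstem and spinal cord, 69.9 and 62.1 CPM against 6.72 and 2.46 CPM. A cluster led by Ndst4 and Abi3bp (cluster 13) held 76.1 and 69.8 CPM against 3.28 and 1.80 CPM, and its log2 fold change of 4.83 ± 0.295 rests on 7 and 4 wildtype UMIs. A cluster led by Tshz2 and Tnxb (cluster 16) held 68.1 and 59.1 CPM against 1.02 and 6.02 CPM, from 1 and 5 UMIs in wildtype. Claustrum or layer 6 Car3 neurons held 59.7 and 57.0 CPM against 9.88 and 3.44 CPM.

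Layer 2/3 IT neurons fell into a pair of clusters with the lowest knockout means of P2rx7 among the excitatory subclasses, 31.8 and 28.002 CPM, though their libraries overlapped those of NP and layer 6b neurons. The former (cluster 1) held 34.6 and 29.1 CPM against 4.32 and 3.86 CPM, and the latter (cluster 6) 33.2 and 22.8 CPM against 3.29 and 3.73 CPM. Both had a log2 fold change of 2.95. Layer 6b neurons held 28.2 and 52.3 CPM against 14.6 and 6.58 CPM, with a log2 fold change of 1.86 ± 0.374 that was the lowest of the 12 excitatory subclasses and clusters compared. Layer 5/6 near-projecting (NP) neurons had 0 P2rx7 UMIs in 194 and 201 wildtype nuclei, which allows shares of up to 1.55% and 1.49% of nuclei with a UMI. Their knockout libraries had 16 and 11 UMIs (38.2 and 29.2 CPM), a level at least 11.6-fold higher than that of 3 UMIs over both wildtype libraries. In each of the 12 the knockout libraries were both higher than the wildtype ones. Of all genes tested, 24.1% and 21.9% did so in the layer 2/3 clusters 1 and 6, 22.5% in layer 4/5 IT, 23.3% in layer 5 IT, 21.1% in layer 5 ET, 22.8% in layer 6 CT, 20.4% in NP and 19.8% in layer 6b neurons. The shares were 20.7% in claustrum or layer 6 Car3 neurons and 23.2%, 21.4% and 20.7% in clusters 8, 13 and 16. Left out in turn, single libraries moved the log2 fold change of cluster 16 most, from 3.37 without wildtype library 1 to 5.77 without wildtype library 2. The layer 6b value ranged from 1.37 without knockout library 2 to 2.57 without wildtype library 1.

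**Figure D2:**
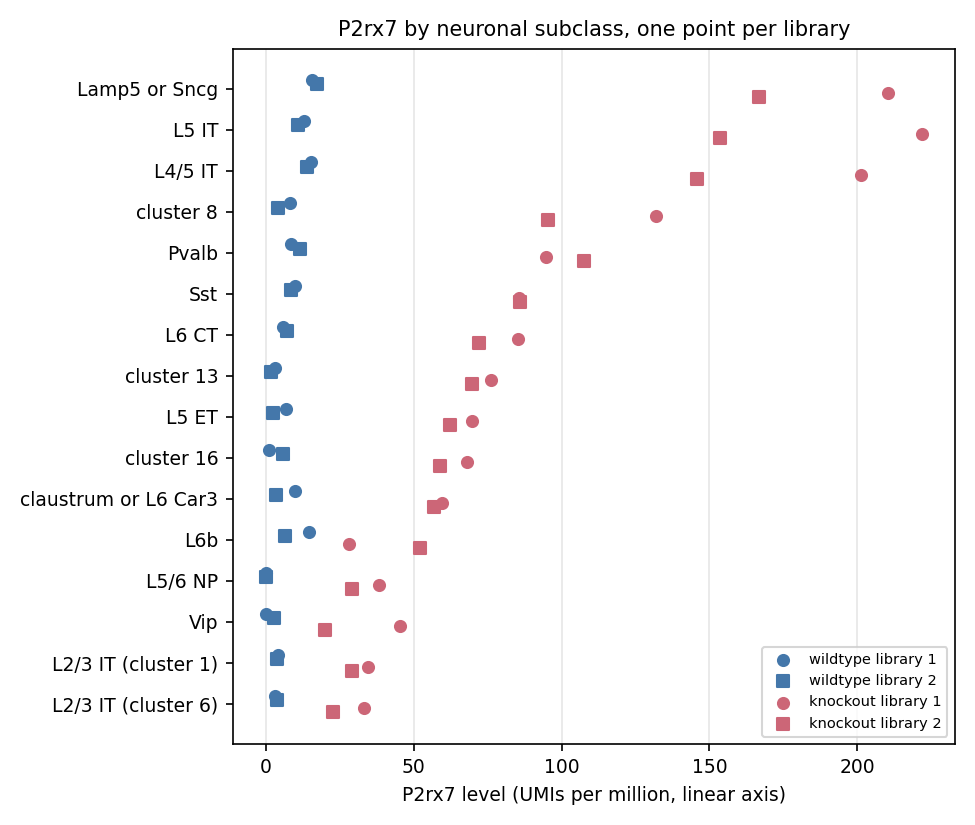
P2rx7 level in CPM (linear axis) in 16 neuronal subclasses and clusters, ordered by the knockout mean, with one point per library. All wildtype points lie at or below 17.5, and the knockout points spread from 20.02 in Vip neurons to 222 in L5 IT neurons.

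Inhibitory neurons were not the cells that singled out P2rx7, and there the difference was tested with edgeR's quasi-likelihood test, Benjamini-Hochberg adjusted over all genes of the class. P2rx7 rose in knockout inhibitory neurons, from 9.85 ± 0.914 to 104.2 ± 6.98 CPM (SD, n = 2), a log2 fold change of 3.40 ± 0.157 (adjusted p = 2.1e-08). This class called 1.16% of 14532 genes in either direction and 0.853% as higher. Parvalbumin neurons, the fast-spiking interneurons, had 8.55 and 11.6 CPM in wildtype and 94.6 and 107 CPM in knockout (log2 fold change 3.32 ± 0.228, adjusted p = 1.2e-09, where 0.408% of genes were called). Somatostatin neurons, which target dendrites, had 9.80 and 8.73 CPM against 85.6 and 86.0 CPM (3.20 ± 0.268, adjusted p = 1.5e-07, with 0.886% called). Neurons with Lamp5 or Sncg had 15.8 and 17.5 CPM against 210 and 167 CPM (3.49 ± 0.250, adjusted p = 4.9e-10, with 0.387% called), and overlapped the layer 5 IT neurons at the top of the knockout order. Vip neurons were too sparse for the filter on low counts, with 0 and 1 wildtype UMIs against 12 and 6 knockout UMIs.

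Meis2 inhibitory neurons had 5 and 1 P2rx7 UMIs in wildtype and 58 and 12 in knockout. Their log2 fold change of 2.75 ± 0.523 did not pass (adjusted p = 1), in a class where 0% of 9722 genes were called. With no filter on low counts the adjusted p was 0.000495, in a fit that called 0.166% of genes. The log2 fold change ranged from 2.32 to 3.70 as each library was left out. A genotype left with 1 library was then assumed to vary like the other pair. The genotype difference in these neurons minus that in the other inhibitory neurons was -0.68 ± 0.644 (adjusted p = 1 for the genotype by class term).

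Glial classes showed smaller genotype differences of P2rx7 on the log2 scale, starting from higher wildtype levels than the neuronal classes. Astrocytes, the one glial class in which it passed the threshold, had 23.3 and 21.4 CPM in wildtype and 75.4 and 65.4 CPM in knockout. The log2 fold change was 1.65 ± 0.231 (edgeR adjusted p = 0.000331), where 1.51% of 11683 genes were called and 0.916% as higher. Oligodendrocytes had 58.0 and 47.4 CPM in wildtype and 89.0 and 68.4 CPM in knockout, with no overlap, as for the 21.4% of genes tested there that were higher in both knockout libraries. The log2 fold change of 0.59 ± 0.181 did not pass (edgeR adjusted p = 0.135). It passed with the replicate number as a block, at 0.58 (adjusted p = 0.0137), in a fit that called 6.19% of genes. Without knockout library 2 it was 0.76, under the same assumption for the remaining knockout library. Over 11 alternatives the adjusted p ran from 0.0137 to 0.965. Of the genes tested in oligodendrocytes 0.994% were called.

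Oligodendrocyte precursors, the dividing progenitors of the oligodendrocyte lineage, had overlapping libraries, 93.5 and 104.9 CPM against 97.8 and 115 CPM. The log2 fold change was 0.10 ± 0.215 (adjusted p = 0.945, with 0.0794% of genes called), and it was -0.01 without knockout library 2. Microglia had 256 and 179 CPM against 285 and 267 CPM, a log2 fold change of 0.34 ± 0.182 (adjusted p = 0.430). It ranged from 0.12 to 0.63 as each library was left out, lowest without wildtype library 2 and highest without wildtype library 1, and 1.22% of genes were called. A miss of the threshold in these classes does not show that P2rx7 was equal in them. Fibroblasts had 1 and 1 UMIs against 3 and 2, and mural cells 1 and 0 against 5 and 1.

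The differences between classes were tested as genotype by class terms against inhibitory neurons, with the library as a block. The P2rx7 difference was smaller in astrocytes by 1.74 ± 0.288 on the log2 scale (adjusted p = 4.3e-05), in oligodendrocytes by 2.81 ± 0.219 (adjusted p = 5.0e-18), in microglia by 3.06 ± 0.221 (adjusted p = 4.2e-39) and in oligodendrocyte precursors by 3.29 ± 0.263 (adjusted p = 1.2e-09). These terms were called for 0.686%, 0.66%, 0.61% and 0.0354% of genes. Each p rests on 4 animals and borrows its estimate of spread from all genes.

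**Figure D3:**
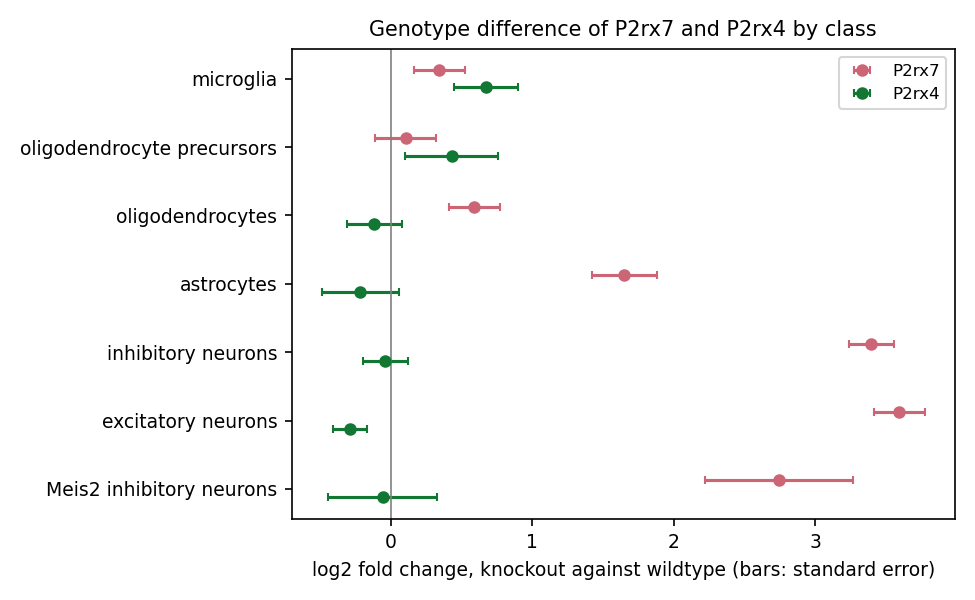
Log2 fold change of knockout against wildtype for P2rx7 (red) and P2rx4 (green) in 7 classes, with bars for the standard error (n = 2 libraries per genotype). P2rx7 lies at 3.60 and 3.40 in excitatory and inhibitory neurons and at 1.65 or below in the 4 glial classes, and P2rx4 lies between -0.29 and 0.68 throughout.

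A P2rx7 UMI was found in 3.01% and 2.22% of wildtype excitatory nuclei and in 26.8% (95% Clopper-Pearson interval 25.7 to 27.96) and 18.3% (17.4 to 19.2) of knockout ones, intervals that cover counting error only. At least 2 UMIs were found in 0.247% and 0.162% of wildtype nuclei and in 9.52% and 4.62% of knockout nuclei, with up to 10 in one nucleus. Median depth was 4060 and 3598 UMIs per wildtype nucleus and 3964 and 3163 per knockout nucleus. Thinned to 1000 UMIs a nucleus, the shares were 0.718% and 0.529% against 9.04% and 7.34%. Among inhibitory nuclei 3.35% and 3.28% against 22.7% and 20.2% carried a P2rx7 UMI, and the share with at least 2 was 0% and 0.0763% against 10.1% and 6.25%. Microglial nuclei, far shallower with medians of 759 to 891 UMIs, carried one in 16.8% and 12.6% of wildtype and 20.5% and 16.1% of knockout nuclei. No class could be taken to lack P2rx7. The lowest wildtype shares of the 7 neuronal and glial classes were 1.09% and 0.433%, in Meis2 inhibitory neurons, at median depths of 1916.5 and 1964 UMIs.

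Astrocytes carried P2rx7 in 2.96% and 2.91% of wildtype nuclei and 10.5% and 7.07% of knockout nuclei. At least 2 UMIs were found in 0.382% and 0% against 0.902% and 0.758%. Bglap3, an osteocalcin-family gene picked after its values were seen, was at 3.06 CPM or less in the wildtype libraries of these classes. In the knockout it stood at 55.1 and 56.2 CPM in excitatory neurons, 36.7 and 54.9 CPM in astrocytes, 54.8 and 67.8 CPM in microglia, 52.1 and 66.8 CPM in oligodendrocytes and 34.0 and 37.0 CPM in oligodendrocyte precursors. Inhibitory neurons held less of it, 18.5 and 25.7 CPM, beside their 109 and 99.3 CPM of P2rx7. The part of free RNA in the P2rx7 values of inhibitory neurons, astrocytes and other glia was not tested.

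Markers of other cells in the excitatory nuclei were compared because wildtype P2rx7 was highest in microglia and oligodendrocyte precursors. The summed microglial list (8 genes, none at 0) was 67.5 and 80.5 CPM in wildtype and 82.0 and 97.6 CPM in knockout. Of the 8 genes, 4 overlapped between genotypes and 4 were higher in both knockout libraries, as were 26.3% of all genes tested in excitatory neurons. The complement genes C1qa and C1qb, among the 4, were at 9.53 and 11.7 against 13.2 and 22.2 CPM and at 8.02 and 11.8 against 12.7 and 18.98 CPM. The receptor gene Csf1r overlapped, at 5.52 and 7.74 against 6.00 and 6.98 CPM. The precursor list (5 genes, none at 0) was 199 and 215 against 340 and 336 CPM. Of its genes 2 were higher in both knockout libraries and 1 was lower in both, beside 26.3% and 26.2% of all genes. The others overlapped. Lhfpl3, at 187 and 200 against 327 and 325 CPM, held most of the sum. C1ql1 was higher too, at 2.27 and 2.26 against 3.08 and 2.78 CPM. The growth factor receptor gene Pdgfra was the lower one, at 2.33 and 3.19 against 2.14 and 1.87 CPM. The part of these RNAs in the P2rx7 result was not tested. Excitatory nuclei with 0 UMIs of the glial marker lists, 370 and 416 in wildtype and 366 and 786 in knockout, held 7.03 and 4.29 CPM against 78.9 and 72.1 CPM of P2rx7. That difference was 3.71 on the log2 scale, beside 3.60 in all excitatory nuclei, again as a description. These nuclei were a small part of the 6870 and 7395 wildtype and 5871 and 7495 knockout excitatory nuclei. A nucleus with few UMIs meets the condition more easily. The depth of this subset was not compared, and its wildtype P2rx7 values rest on few UMIs.

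P2rx4 was counted in all 7 classes and did not follow P2rx7. In excitatory neurons it was 25.6 and 25.6 CPM in wildtype and 23.1 and 18.9 CPM in knockout, so the knockout libraries were both lower, as for 26.2% of genes there, with a log2 fold change of -0.29 ± 0.120. It was -0.15 without knockout library 2 and -0.44 without knockout library 1. Layer 4/5 IT neurons had 29.5 and 31.8 against 25.6 and 16.9 CPM, lower in both knockout libraries like 22.1% of genes tested there. Layer 6 CT neurons had 30.4 and 31.6 against 23.5 and 21.99 CPM, a pattern shared with 22.7% of genes. In layer 2/3 IT neurons of cluster 1 the libraries overlapped, at 21.4 and 19.98 against 23.8 and 20.4 CPM. Inhibitory neurons had overlapping levels of 34.1 and 29.6 against 30.2 and 31.8 CPM (log2 fold change -0.04 ± 0.157, edgeR adjusted p = 0.944). That sign turned, to 0.06, without wildtype library 1.

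Microglia had the highest P2rx4 level of these classes, 99.5 and 72.0 CPM in wildtype and 127 and 147 CPM in knockout. The log2 fold change of 0.68 ± 0.226 did not pass (adjusted p = 0.142), with both knockout libraries higher, as for 20.7% of microglial genes. It passed with the replicate number as a block (adjusted p = 0.0388), in a fit that called 4.61% of microglial genes. Over 11 alternatives the adjusted p ran from 0.0388 to 0.997. P2rx4 in oligodendrocyte precursors was 42.2 and 27.6 against 51.0 and 43.2 CPM (0.43 ± 0.332, adjusted p = 0.784). Oligodendrocytes held 50.0 and 43.8 against 46.8 and 39.1 CPM (-0.12 ± 0.194, adjusted p = 0.858), and astrocytes 32.1 and 25.8 against 23.8 and 26.4 CPM (-0.22 ± 0.272, adjusted p = 0.813). Meis2 inhibitory neurons held 25.98 and 14.1 against 20.9 and 19.5 CPM (-0.06 ± 0.384, adjusted p = 1). By edgeR's quasi-likelihood test 0 of these 6 classes passed for P2rx4, and 1, microglia, had an unadjusted p under 0.05 (0.00575). By DESeq2 and limma-voom 0 passed as well.

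**Figure D4:**
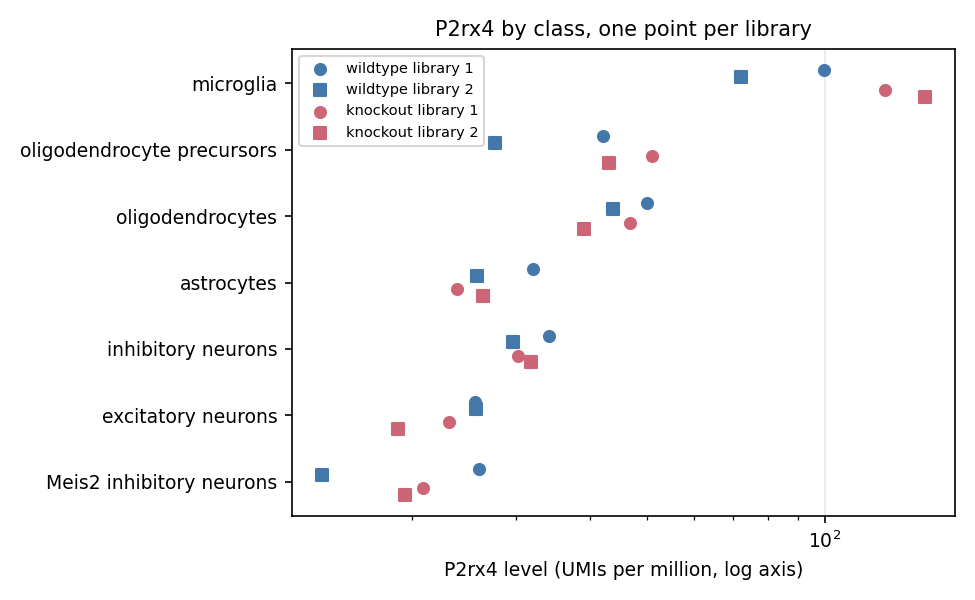
P2rx4 level in CPM (log axis) for the same 7 classes, with one point per library. Wildtype and knockout points overlap in oligodendrocytes, astrocytes and both sets of inhibitory neurons, and in microglia the knockout points at 127 and 147 lie above the wildtype points at 99.5 and 72.0.

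The other 5 members were sparse. P2rx6, whose subunit forms channels mainly with other P2X subunits, was counted 109 to 140 times per library, most of it in excitatory neurons at 3.58 and 3.31 CPM in wildtype and 3.11 and 3.67 CPM in knockout (log2 fold change -0.02 ± 0.186). Its highest level among excitatory subclasses was in the Tshz2 cluster (cluster 16), 8.18 and 15.7 against 7.17 and 14.1 CPM, where the libraries overlapped. P2rx3, the fast-closing receptor of pain-sensing neurons, gave 51 to 88 UMIs per library and 1.98 and 2.24 against 1.34 and 2.08 CPM in excitatory neurons (-0.30 ± 0.264). In inhibitory neurons it had 7 and 10 UMIs against 6 and 18, of which Lamp5 or Sncg neurons held 1 and 2 against 4 and 11. P2rx5 gave 48 to 58 UMIs per library and 0.94 and 1.48 against 0.998 and 1.52 CPM in excitatory neurons (0.06 ± 0.332). For all 3 the wildtype and knockout libraries overlapped in excitatory neurons. In inhibitory neurons P2rx5 had 6 and 5 UMIs against 10 and 9, and P2rx6 had 3 and 7 against 11 and 8. Neither gene passed the filter on low counts there, so these differences were not tested.

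P2rx1, the receptor of platelets and smooth muscle, gave 12 to 20 UMIs per library, and in microglia 1 and 1 against 2 and 4. P2rx2, a subunit of sensory and autonomic neurons, was found as 1 UMI in wildtype library 1 and 1 UMI in knockout library 1, and as 0 in the others, where a count of 0 allows up to 3. In excitatory neurons 5 of the 7 members passed the filter on low counts and 1, P2rx7, was called, which its choice had fixed, beside 4.39% of all 19259 genes. Elsewhere P2rx4 and P2rx7 alone passed it, in each of the other 6 classes with enough counts, and neither passed it in fibroblasts or mural cells.

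The genes around P2rx7 were compared in excitatory neurons to see whether the neighbourhood moved. Of 51 genes annotated within 500 kb of it, 32 were in the matrices, and 28 besides P2rx7 and P2rx4 passed the filter on low counts. By edgeR 0 of the 28 were called (4 had an unadjusted p under 0.05), against 4.39% of all genes. Their log2 fold changes lay between -0.36 and 0.41 with a median of 0.04, beside 0.00 for all genes, and the knockout libraries were both higher for 6 and both lower for 7, beside 26.3% and 26.2% of all genes. On the lower side the nearest tested gene, Ift81, an intraflagellar transport gene 29.4 kb away, had 75.3 and 65.3 against 77.7 and 66.5 CPM (0.04 ± 0.107, adjusted p = 0.877). On the higher side P2rx4 is nearest, and beyond it Camkk2, a calmodulin-dependent kinase kinase, had 164 and 156 against 142 and 112 CPM (-0.34 ± 0.110, adjusted p = 0.129). With the replicate number as a block 4 of the 28 were called, Atp2a2, Camkk2 and AI480526 as lower and Fam216a as higher, beside 16.3% of all genes in that fit.

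Within 1 Mb 2 of 53 genes were called, both beyond 500 kb and both higher, beside 4.39% of all genes called in either direction. Wdr66, 561 kb away, had 24.6 and 25.7 against 52.5 and 61.6 CPM (1.18 ± 0.112, adjusted p = 0.000671). Gm15857, 602 kb away, had 1.74 and 2.41 against 4.99 and 6.25 CPM (1.44 ± 0.219, adjusted p = 0.00875). Gm15857 is annotated as antisense inside Wdr66, so reads of this pair may not be told apart, since the strand setting of the counting is not given.

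**Figure D5:**
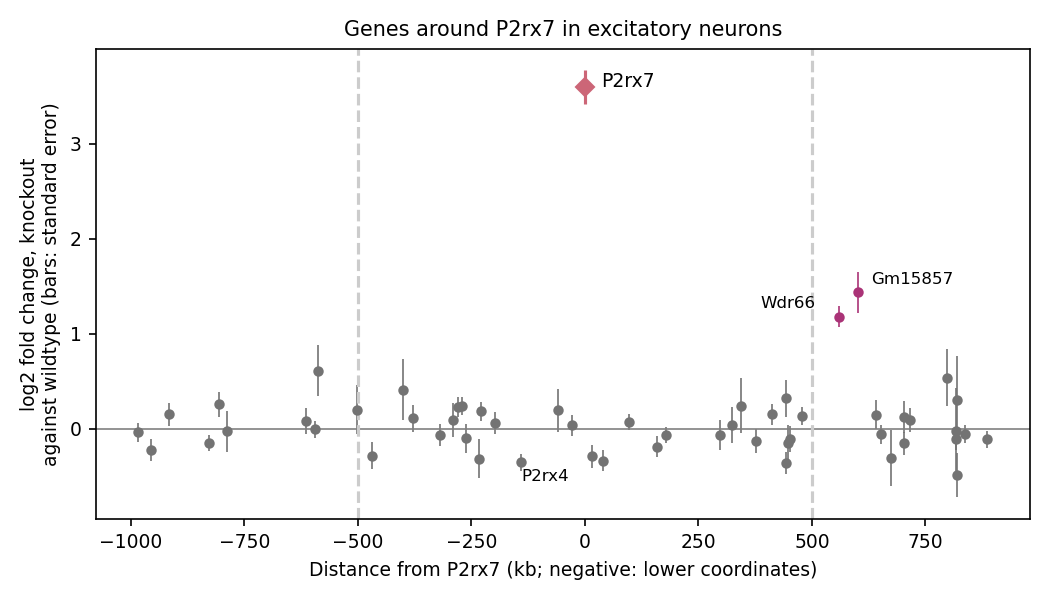
Log2 fold change of knockout against wildtype in excitatory neurons (bars: standard error) for P2rx7, P2rx4 and the genes tested within 1 Mb, by distance from P2rx7 in kb, with dashed lines at 500 kb. P2rx7 stands at 3.60, every other gene inside the lines lies between -0.36 and 0.41, and Wdr66 and Gm15857 (purple) are the called genes.

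Genes that handle ATP around P2X receptors were read from 4 lists of 39 genes in all: the metabotropic P2Y receptors, ATP release channels and carriers, enzymes that break nucleotides down, and the inflammasome with interleukin 1. Excitatory neurons had 26 of them past the filter. Among these 2 fell, 0 rose and 24 did not pass, beside 1.39% of all genes called as lower. Tmem163, listed with ATP release though known as a zinc transporter of synaptic vesicles, had 65.9 and 67.7 CPM in wildtype and 47.0 and 44.8 CPM in knockout (-0.54 ± 0.0883, edgeR adjusted p = 0.0123). Casp1, the protease that the inflammasome activates, was sparse, with 50 and 44 UMIs against 10 and 10 (-2.05 ± 0.312, adjusted p = 0.00868). Il1r1, the interleukin 1 receptor gene, had 2.08 and 1.69 against 1.34 and 0.76 CPM (adjusted p = 0.171).

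P2Y receptors of excitatory neurons did not pass: P2ry12, best known from microglia, had 63.5 and 67.5 against 79.6 and 90.0 CPM (0.37 ± 0.0907, adjusted p = 0.0574), and P2ry14, a receptor for UDP-sugars, 218 and 198 against 253 and 263 CPM (0.31 ± 0.0796, adjusted p = 0.0654). Single settings differed on these. DESeq2 called 3 list genes, P2ry12 among them, beside 4.43% of all genes. The replicate block called 6, with P2ry12, P2ry14, Nt5e and Il1r1 added, beside the 16.3% given above. Without knockout library 1, when 1 knockout library is assumed to vary like the wildtype pair, 7 were called, both P2Y genes among them, beside 14.8%. The median log2 fold change of the 4 tested P2Y genes was 0.21, that of the 7 release genes -0.05, of the 7 breakdown genes 0.23 and of the 8 inflammasome genes -0.24, beside 0.00 over all genes. Nt5e, which makes adenosine from AMP, had 11.8 and 12.96 against 15.8 and 15.5 CPM (adjusted p = 0.151). Entpd1, the CD39 enzyme that degrades ATP, had 4.32 and 3.998 against 4.49 and 5.27 CPM (adjusted p = 0.483).

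Inhibitory neurons had 17 list genes past the filter, of which 1 fell, 0 rose and 16 did not pass, beside 0.303% of genes called as lower. Nek7, the kinase that NLRP3 binds when the inflammasome forms, had 118 and 108 CPM in wildtype and 82.5 and 84.7 CPM in knockout (-0.44 ± 0.0972, adjusted p = 0.0412). No list gene passed there without wildtype library 1, wildtype library 2 or knockout library 2. P2ry14 had 197 and 172 against 239 and 246 CPM (0.39 ± 0.0978, adjusted p = 0.0735). Entpd3, a nucleotidase, had 23.7 and 17.7 against 14.4 and 14.4 CPM (-0.52 ± 0.207, adjusted p = 0.285).

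Outside these neurons 0 list genes passed. Astrocytes had 13 tested, among them Entpd2, an ATP-degrading enzyme of astroglia, at 8.81 and 5.90 against 14.9 and 22.2 CPM (1.29 ± 0.411, edgeR adjusted p = 0.133). Microglia had 12 tested. Their NLRP3 sensor gene, Nlrp3, had 36.5 and 51.4 against 23.2 and 31.9 CPM (-0.66 ± 0.366, adjusted p = 0.45), the pore-forming Gsdmd 40.6 and 30.9 against 56.9 and 55.8 CPM (0.65 ± 0.322, adjusted p = 0.381), P2ry12 583 and 535 against 559 and 552 CPM (-0.01 ± 0.155, adjusted p = 0.991) and Entpd1 493 and 405 against 555 and 460 CPM (0.17 ± 0.167, adjusted p = 0.737). The inflammasome list had a median log2 fold change of 0.19 over 6 genes in microglia and 0.10 over 3 in astrocytes. Oligodendrocytes had 15 list genes tested, oligodendrocyte precursors and Meis2 inhibitory neurons 12 each, and fibroblasts and mural cells 1 each.

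The genes whose level followed P2rx7 most closely across classes were sought among 18774 genes, over 18 points made of the mean of each genotype in 9 classes, as a description. Trem2, a lipid receptor of microglia, had the highest Pearson r, 0.779, on the log2(CPM + 1) scale. Babam2, a subunit of a deubiquitinase complex, followed at 0.777, Apbb1ip, an adaptor of integrin signalling, at 0.771, Zmynd15 at 0.746 and the predicted gene Gm10248 at 0.740. All 5 had higher wildtype levels in microglia than in excitatory neurons. Trem2 had means of 2.47 and 4.31 CPM in wildtype and knockout excitatory neurons and Babam2 had means of 120 and 121 CPM. The points include fibroblasts and mural cells, where P2rx7 rested on 0 to 5 UMIs per library. In mural cells all 5 genes had a higher mean in knockout, Trem2 61.6 against 0 CPM, beside 130 against 14.3 CPM of P2rx7. How far the order of genes rests on these sparse points was not tested.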

How the data were processed

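Nuclei of mouse cortex were sequenced with the 10x Genomics 3′ droplet chemistry, per the labels' protocols. The authors deposited raw UMI counts per gene and barcode for each of 4 libraries. Cell Ranger 7.1.0 and mm10 are named in the submitters' processing notes. Whether intronic reads were counted, or strand was used, is not given in the sources used here.

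A nucleus needed 500 UMIs and 300 detected genes, and no more than 5% of its UMIs from mitochondrial genes. Scrublet then removed 2464 doublets, 4.14% to 5.11% per library. Clustering (scanpy 1.11.5, Leiden) used 2000 variable genes without sex-linked, mitochondrial, Setdb1 and P2X genes. Classes were named from marker lists, so shares depend on these rebuilt names. Counts were summed per library and class and tested with edgeR 4.0.16 (quasi-likelihood, TMM, filterByExpr with a minimum count of 10, Benjamini-Hochberg threshold 0.05); levels are TMM-scaled CPM. Summed marker lists are CPM without TMM. Classes with at least 30 nuclei in each library were fitted. Standard errors are the absolute log2 fold change over the root of F. The test was tried on simulated counts first.

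The members, lists and tests were chosen with earlier results of these data known. Named genes were all 7 members, list genes past the threshold or, where none passed, examples from the 2 with the smallest p in a list, the called and nearest flanking genes, and the 5 genes most like P2rx7 with at least 5 CPM in a class. Other genes were named after their values were seen. Alternatives were DESeq2 1.42.0, limma-voom 3.58.1, other scaling, filters, nuclei sets, a replicate block and each library left out. Samples are 2 animals per genotype. In bulk sums of nuclei, fewer expressing nuclei and less RNA per nucleus are separated only by the counts per nucleus given. Levels are compared within a gene, since 3′ capture differs between genes.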

Additional observations from a re-analysis of the deposited data

Results flagged for a closer look

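The genotype difference of P2rx7 differed between classes by its own test, the edgeR genotype by class term with the library as a block, Benjamini-Hochberg adjusted over all genes. On the log2 scale the difference in astrocytes minus that in inhibitory neurons was -1.74 (adjusted p = 4.3e-05), in oligodendrocytes -2.81 (adjusted p = 5.0e-18), in microglia -3.06 (adjusted p = 4.2e-39) and in oligodendrocyte precursors -3.29 (adjusted p = 1.2e-09). P2rx7 was higher in both knockout libraries than in both wildtype libraries in inhibitory neurons, astrocytes, oligodendrocytes and microglia, and overlapped in oligodendrocyte precursors. In oligodendrocytes and microglia, where P2rx7 did not pass, 21.4% and 20.7% of all genes tested were likewise higher in both knockout libraries. With 2 libraries per genotype no single library was compared with the rest of its group.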

How the results depend on the processing

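Under 11 alternatives each, P2rx7 passed in inhibitory neurons and astrocytes, and in microglia and oligodendrocyte precursors it never did. It passed under 3 of the 11 in Meis2 inhibitory neurons and under 2 in oligodendrocytes. The terms between classes for astrocytes, oligodendrocytes, precursors and microglia passed under all 5 alternatives, which were chosen after seeing the data. In Meis2 inhibitory neurons P2rx7 was 2.75 with no filter on low counts (adjusted p = 0.000495) and 2.75 with the replicate block (adjusted p = 0.0424). Those fits called 0.166% and 0.154% of genes. In oligodendrocytes P2rx7 was 0.58 with the block (adjusted p = 0.0137), where 6.19% of genes were called.

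With each library left out in turn, P2rx7 ranged from 2.32 to 3.70 in Meis2 inhibitory neurons, from 0.39 to 0.76 in oligodendrocytes and from -0.011 to 0.22 in precursors. The Meis2 term between classes ranged from -1.11 to 0.43 and turned its sign without wildtype library 1. P2rx4 ranged from -0.36 to 0.53 in Meis2 inhibitory neurons and from -0.14 to 0.063 in inhibitory neurons. It was 0.048 in Meis2 inhibitory neurons with stricter doublet removal and 0.031 with at least 1000 UMIs a nucleus, which gave 0.075 in oligodendrocytes. The cause was not tested.

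List genes called in excitatory neurons numbered 3 with DESeq2 (4.43% of all genes called), 6 with the block (16.3%) and 2 to 7 with a library left out, 7 of them without knockout library 1 (14.8%). In inhibitory neurons they numbered 0 with DESeq2 (0.557%; 2 list genes at an unadjusted p under 0.05), 2 with no filter (2.05%), 3 with the block (5.77%) and 0 to 2 with a library left out (0.736% to 4.97%). Within 500 kb of P2rx7 the block called 4 genes, beside 0 without it. A group left with 1 library is assumed to vary like the other group. The replicate numbers are not tied to a litter or batch by the labels. Same-numbered libraries share the sex read from Xist, so the block is one by that as well. Over genes, the difference of library 1 from library 2 in wildtype correlated with that in knockout. The r was 0.231 in excitatory and 0.112 in inhibitory neurons. Besides these, the block moved P2rx4 in microglia past the threshold, at 0.68 (adjusted p = 0.0388), where it called 4.61% of genes.

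Thinned to 1000 UMIs, the mean share of excitatory nuclei with P2rx7 was 0.624% in wildtype and 8.19% in knockout, against 2.62% and 22.5% unthinned. Precision is limited by 2 animals per genotype, whose spread may be partly technical, and in Meis2 inhibitory neurons by 6 wildtype P2rx7 UMIs.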
